A study of Punica granatum with 4 samples.

Results

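The comparison described here sets a leaf library from pomegranate plants (Punica granatum) given 60 µM abscisic acid (ABA) against one from plants given 30 µM. All plants were of the strain labelled Hongmanao and the genotype labelled wt, aged 180 days, with soil water kept at 30% to 35% of field capacity. The sample records also list 90 growth days for each library. The 60 µM plants received 5 mL of the ABA spray each day, and so did the 30 µM plants at the lower strength. A 90 µM library and a library from water-sprayed plants (0 µM), under the same drought, are used below as context. No well-watered plants are among the samples, so drought is common to every library. Each dose has 1 library. With 1 library per dose no spread within a dose can be measured, and no difference below has a test. Pooling of plants within a library is not stated. In whole leaves, fewer cells of a type and less RNA per cell cannot be told apart.

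Genes entered when they reached 1 CPM (counts per 1e6 counts of the library) at 60 µM or at 30 µM, which held for 18951 of the 27893 features in the table. Of these, 17969 reached 1 CPM in both libraries, 578 at 60 µM only and 404 at 30 µM only. The 60 µM library held 28366719 counts and the 30 µM library 24052618, and after scaling for composition 1 count was worth 0.0347 CPM at 60 µM and 0.0411 CPM at 30 µM. The table has no plastid protein-coding genes, and its nuclear identifiers are not paired with product descriptions in the sources used here. The leaf label could therefore not be set against leaf markers, and genes are named by identifier, without a role.

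ABA is the hormone that builds up in drying leaves. It is bound by a family of soluble receptors that then block protein phosphatases, which frees protein kinases to act on ion channels of the guard cells and on transcription factors. Stomata close within minutes, while the transcriptional arm raises protective proteins and enzymes over hours to days. Responses to sprayed ABA are known to depend on the amount, and the question addressed by this pair of libraries is how the leaf transcriptome differed between 2 neighbouring doses.

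Between the doses 1482 genes lay more than 2-fold apart, 7.82% of those kept. At 60 µM 812 genes were higher than at 30 µM (4.28%) and 670 were lower (3.54%). A gene was called higher or lower when the exact 95% counting interval of its ratio, 60 over 30 µM, lay wholly above 2 or wholly below 0.5. Such an interval covers counting error only and says nothing of how plants given the same dose differ. The higher genes had a median ratio of 3.71, and the lower genes a median ratio of 0.304, or 3.25-fold lower. The direction was uneven among the larger differences, with 244 higher and 128 lower genes at intervals past 4-fold. Past 8-fold there were 101 and 40, and past 16-fold 50 and 15. Past 2-fold, 222 higher genes entered through the 60 µM library alone and 139 lower genes through the 30 µM library alone. How far this bears on the uneven direction was not tested. With 1 CPM in both libraries 590 genes were higher and 531 lower past 2-fold, and the larger limits are not given for that set. A further 996 genes had a ratio past 2-fold with an interval that did not clear it.

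The called higher gene nearest to the limit was LOC116215430, with 1212 counts at 60 µM and 459 at 30 µM (ratio 2.23, lower end of the interval 2.001). The nearest gene not called on that side was LOC116212345, with 3912 counts at 60 µM and 1558 at 30 µM (ratio 2.12, lower end 1.999). Among lower genes the nearest called was LOC116213031, with 143 counts at 60 µM and 296 at 30 µM (ratio 0.408, upper end of the interval 0.49985). LOC116210153, just outside, had 163 counts at 60 µM and 333 at 30 µM (ratio 0.413, upper end 0.5001).

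The same libraries entered other pairs of doses. With the same limit, 6.55% of genes differed for 60 against 0 µM, 3.65% for 30 against 0 µM, 7.60% for 90 against 60 µM and 6.43% for 90 against 30 µM. The typical size of a difference, the median absolute deviation of the log2 fold over all genes kept, was 0.289 for 60 against 30 µM. It was 0.267 for 60 against 0 µM, 0.235 for 30 against 0 µM, 0.304 for 90 against 60 µM and 0.315 for 90 against 30 µM. These pairs share libraries, so the values stand side by side and are not independent of each other.

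**Figure D1:**
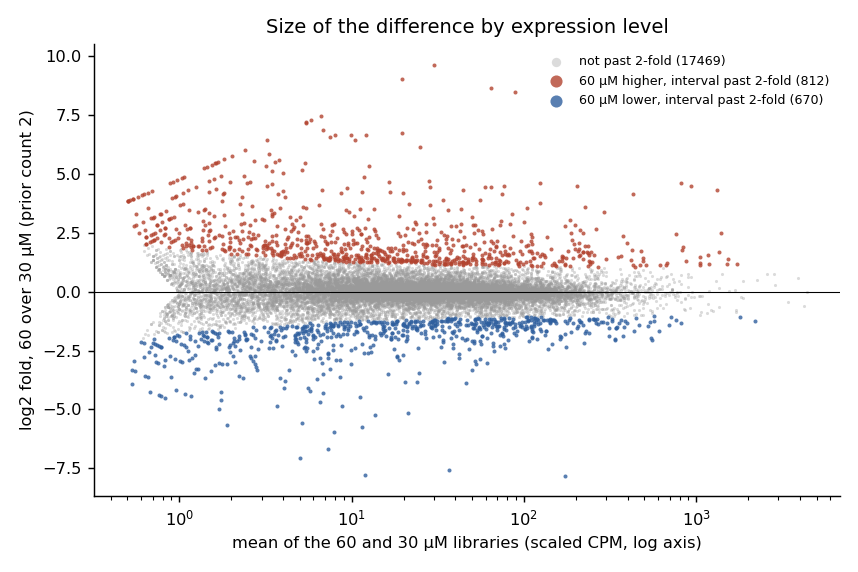
Log2 fold, 60 over 30 µM ABA, of each of the 18951 genes against its mean scaled CPM on a log axis; 812 genes higher and 670 lower by the interval rule are coloured. Genes past 2-fold are found at every level, and the cloud is narrowest between 30 and 100 CPM.

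The size of the differences changed with expression level in a U shape. Levels here are mean CPM of the 60 and 30 µM libraries after scaling. They are not corrected for transcript length, so a level mixes abundance with length. Below 1 CPM every gene had entered through the library where it was higher, as had some of those from 1 to 3 CPM (1292 of 1815 had 1 CPM in both), so the spread in these 2 ranges is partly set by the filter. Below 1 CPM (390 genes) the median absolute deviation of the log2 fold was 1.23, and from 1 to 3 CPM (1815 genes) it was 0.587. It was 0.399 from 3 to 10 CPM (3419 genes) and 0.264 from 10 to 30 CPM (5262 genes). The lowest value, 0.212, was reached from 30 to 100 CPM, the most populated range with 5738 genes. Above it the spread widened again, to 0.227 from 100 to 300 CPM (1934 genes), 0.290 from 300 to 1000 CPM (351 genes) and 0.697 for the 42 genes at 1000 CPM or more.

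The counting error was smaller at each higher level. Counting alone would give a median absolute deviation of 0.291 below 1 CPM, 0.0374 from 30 to 100 CPM and 0.00703 at 1000 CPM or more. The observed spread was 3.68 times the counting spread from 3 to 10 CPM, 5.66 times from 30 to 100 CPM and 99.2 times in the uppermost range. The median interval reached 2.02-fold to either side below 1 CPM, 1.14-fold from 10 to 30 CPM and 1.02-fold at 1000 CPM or more. In all, 12513 genes (66.0%) had an interval that left out 1, including all 42 genes at 1000 CPM or more and 49.3% of those from 1 to 3 CPM. An interval that left out 1 was thus met by most genes.

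**Figure D2:**
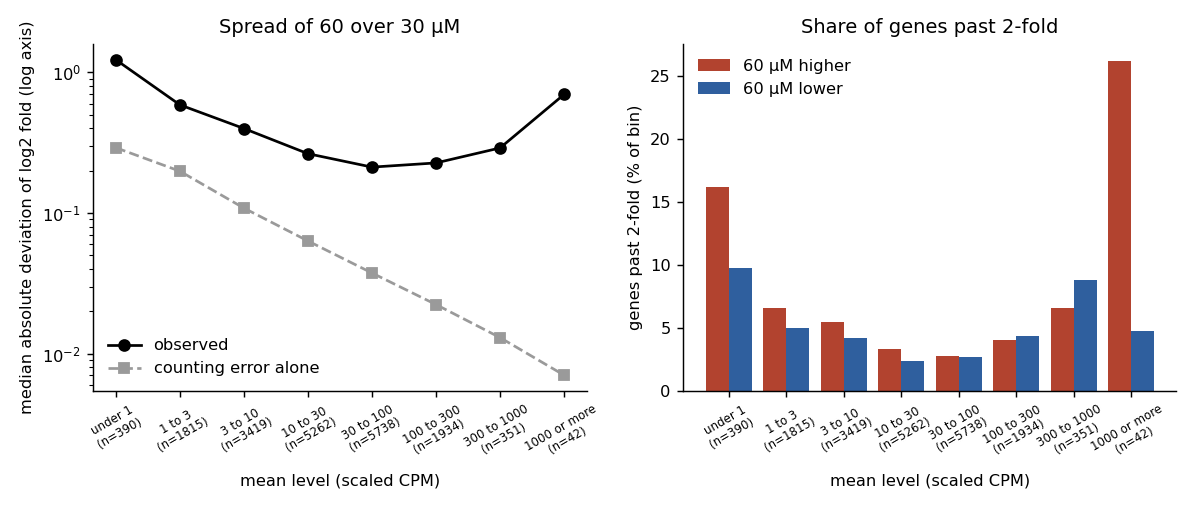
Left, median absolute deviation of the log2 fold (60 over 30 µM ABA, log axis) in 8 ranges of mean scaled CPM, observed (circles) and from counting error alone (squares). Right, percent of the genes in each range with an interval past 2-fold, 60 µM higher in red and 60 µM lower in blue. Genes higher at 60 µM have their lowest share from 30 to 100 CPM (2.75%). Genes lower at 60 µM have theirs from 10 to 30 CPM (2.39%).

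Over all genes kept, the share past 2-fold followed the same shape. It was 25.9% below 1 CPM, 11.5% from 1 to 3 CPM, 9.65% from 3 to 10 CPM, 5.68% from 10 to 30 CPM and 5.45% from 30 to 100 CPM. From 100 to 300 CPM it was 8.43%, from 300 to 1000 CPM 15.4%, and at 1000 CPM or more 13 of 42 genes (31.0%). At the low end this share is partly set by the way genes entered. Every gene averaging under 1 CPM reached 1 CPM in a single library, so it had to be lower in the other one. Of the 578 genes that entered through the 60 µM library alone, 222 were called higher, and of the 404 that entered through the 30 µM library alone, 139 were called lower. Among genes with 1 CPM in both libraries the called share was 6.24%. It was 1.39% (18 of 1292 genes) from 1 to 3 CPM and 8.20% from 3 to 10 CPM. From 10 to 30 CPM it was 5.48%, and from 30 to 100 CPM 5.39%. With this requirement, which itself limits the ratios possible at low levels, the share did not rise further below 3 CPM. With genes placed by their level at 0 and 90 µM, it was 5.08% below 1 CPM, 4.67% from 1 to 3 CPM and 7.92% from 3 to 10 CPM. Requiring 1 CPM in both libraries changed nothing in the ranges from 100 CPM up, where all genes met it.

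The balance of directions differed between ranges of level. From 10 CPM up, where nearly all genes had 1 CPM in both libraries, higher genes made up 57.9% of those called from 10 to 30 CPM, 50.5% from 30 to 100 CPM, 47.9% from 100 to 300 CPM and 42.6% from 300 to 1000 CPM. At 1000 CPM or more the split was 11 higher and 2 lower. When genes were placed by their mean level at 0 and 90 µM, libraries outside the pair, the U shape was kept, with a spread of 0.207 from 30 to 100 CPM and 0.639 for the 47 genes at 1000 CPM or more, but the split in that last range was 8 higher and 4 lower. The 812 higher genes together held 8.47% of all counts at 60 µM (exact interval 8.46% to 8.48%) and 2.55% at 30 µM (2.54% to 2.56%). The 670 lower genes held 2.36% at 60 µM and 6.51% at 30 µM. The direction of these differences was fixed by the choice of the genes. In the 0 and 90 µM libraries the higher genes held 3.47% and 5.87%, and the lower genes 5.04% and 5.20%.

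Among the most counted genes, LOC116194260 stood apart. It had 72755 counts at 60 µM and 3052 at 30 µM (20.1-fold higher, interval 19.4 to 20.9), with 1223 counts at 0 µM and 49386 at 90 µM. The 60 and 90 µM libraries were high and the 0 and 30 µM libraries low. LOC116195363 was likewise high in those 2 libraries, with 67760 counts at 60 µM and 10202 at 30 µM (ratio 5.61, interval 5.49 to 5.73), 5693 at 0 µM and 64049 at 90 µM. The ratio was 3.17 for LOC116214825, with 59443 counts at 60 µM and 15829 at 30 µM. For the other 8 higher genes at this level it lay between 2.19 (LOC116200037) and 2.96 (LOC116188420). These 11 genes took 2.19% of the 60 µM library and 0.731% of the 30 µM library, with 1.00% at 0 µM and 1.58% at 90 µM. The order of the 60 and 30 µM shares follows from the choice of the genes.

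Both lower genes at this level differed by little more than 2-fold. LOC116204462 had 37670 counts at 60 µM and 74530 at 30 µM (2.34-fold lower, interval 2.31 to 2.37), with 54475 at 0 µM and 88095 at 90 µM. LOC116212433 had 33210 counts at 60 µM and 59922 at 30 µM (2.14-fold lower, interval 2.11 to 2.17), with 57815 at 0 µM and 46099 at 90 µM. In both the 60 µM library was the lowest of the 4. Of the 10 genes with the highest mean scaled CPM, LOC116204462 was the only one called, and the ratios of the 10 ran between 0.427 and 1.68. LOC116208007, with the highest mean level, had 125261 counts at 60 µM and 106860 at 30 µM, and its ratio was 0.990 (interval 0.982 to 0.998).

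Below them, between 300 and 1000 CPM, the 2 higher genes furthest past the limit were LOC116187230 and LOC116197583. LOC116187230 had 44984 counts at 60 µM and 1550 at 30 µM (ratio 24.5, interval 23.3 to 25.8), with 2438 at 0 µM and 45892 at 90 µM. LOC116197583 had 51833 counts at 60 µM and 1935 at 30 µM (ratio 22.6, interval 21.6 to 23.7), with 3366 at 0 µM and 14814 at 90 µM. The lower genes of this range were closer to the limit. LOC116198171 had 6144 counts at 60 µM and 21739 at 30 µM (4.19-fold lower, interval 4.07 to 4.31), and LOC116213207 had 3831 at 60 µM and 13294 at 30 µM (4.11-fold lower, interval 3.96 to 4.26).

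Between 100 and 300 CPM, LOC116187191 had 6912 counts at 60 µM and 235 at 30 µM (ratio 24.8, interval 21.8 to 28.4), with 63 at 0 µM and 5837 at 90 µM. LOC116214897 had 11245 counts at 60 µM and 421 at 30 µM (ratio 22.6, interval 20.5 to 24.9), with 7758 at 0 µM and 565 at 90 µM. The first was high in the 2 libraries with the most ABA, and the second in the 60 µM and the water library. LOC116190357 went far the other way, with 42 counts at 60 µM and 8383 at 30 µM (236-fold lower), with 5307 at 0 µM and 3267 at 90 µM, so that the 60 µM library alone was low. From 30 to 100 CPM, LOC116187791 had 165 counts at 60 µM and 2094 at 30 µM (15.0-fold lower, interval 12.8 to 17.7), with 1743 at 0 µM and 1119 at 90 µM. Again from 100 to 300 CPM, LOC116193463 had 1223 counts at 60 µM and 5660 at 30 µM (5.48-fold lower, interval 5.15 to 5.83), with 1369 at 0 µM and 5271 at 90 µM.

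The largest differences of all, ranked by the end of the interval nearest to 1, were of another kind, with few or no counts in one library. LOC116210933 had 1740 counts at 60 µM and 0 at 30 µM, at least 489-fold higher when a floor of 3 counts stands for 0. LOC116189976 followed with 1133 counts at 60 µM and 0 at 30 µM, at least 318-fold higher. LOC116209956 had 3683 counts at 60 µM and 6 at 30 µM (ratio 518, interval 238 to 1414). LOC116213234 had 5075 counts at 60 µM and 10 at 30 µM (ratio 429, interval 233 to 894).

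The next of these genes had fewer counts. LOC116196374 had 381 counts at 60 µM, LOC116196892 had 334, LOC116207941 had 315 and LOC116214401 had 312, each against 0 at 30 µM, which made them at least 107, 94, 88 and 87-fold higher in that order. LOC116215005 had 392 counts at 60 µM and 1 at 30 µM (ratio 331, interval 59.1 to 13110). These 9 genes had between 146 and 2527 counts in the water library and 0 to 6 at 90 µM. LOC116202733 differed from them, with 1122 counts at 60 µM and 7 at 30 µM (ratio 135, interval 65.5 to 338), but 10 at 0 µM and 46 at 90 µM.

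On the lower side, LOC116190357 led. LOC116195944 came next, with 9 counts at 60 µM and 1782 at 30 µM (234-fold lower, interval 123 to 514), with 20 at 0 µM and 1142 at 90 µM. LOC116213047 had 1 count at 60 µM and 582 at 30 µM (689-fold lower, interval 123 to 27263), with 2 at 0 µM and 633 at 90 µM. LOC116210303 had 0 counts at 60 µM and 245 at 30 µM, at least 96-fold lower, with 0 at 0 µM and 332 at 90 µM.

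In these 3 genes after LOC116190357 the 30 and 90 µM libraries were high and the 0 and 60 µM libraries low. LOC116216027, LOC116189540 and LOC116187147 shared that arrangement, with 10, 0 and 4 counts at 60 µM and 549, 92 and 247 at 30 µM. LOC116190360 had 2 counts at 60 µM and 355 at 30 µM (210-fold lower, interval 57.8 to 1742), with 156 at 0 µM and 293 at 90 µM. In LOC116215861 and LOC116210730 only the 30 µM library was high. LOC116215861 had 5 counts at 60 µM and 381 at 30 µM, with 14 at 0 µM and 8 at 90 µM, and LOC116210730 had 31 at 60 µM and 1005 at 30 µM, with 19 at 0 µM and 34 at 90 µM.

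**Figure D3:**
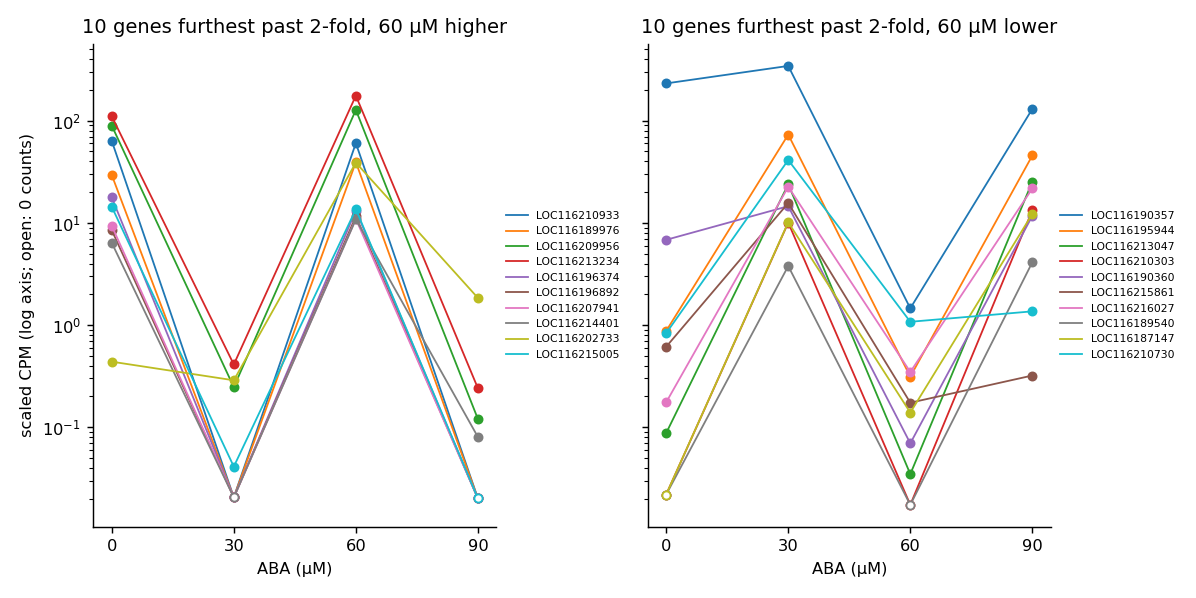
Scaled CPM on a log axis at 0, 30, 60 and 90 µM ABA for the 10 genes furthest past 2-fold in each direction between 60 and 30 µM; open circles mark 0 counts and are drawn at the value of 0.5 counts. In 9 of the 10 higher genes the 0 µM library lies near the 60 µM one and the 90 µM library near the 30 µM one.

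Genes with no counts in one library were few. Of the kept genes 32 had 0 counts at 30 µM, with 29 to 1740 counts at 60 µM, and 10 of them had 100 or more. At 60 µM 7 kept genes had 0 counts, with 26 to 245 counts at 30 µM, and 1 of them had 100 or more. The depth of the 30 µM library puts a floor of 3 counts at 0.123 CPM, and that of the 60 µM library at 0.104 CPM, so absence below those levels was not detectable.

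The 0 and 90 µM libraries, which entered the choice of the called genes only through the scaling factors, fell differently around the pair. For each gene it was asked whether each of them lay nearer, on the log2 scale, to its 60 µM or its 30 µM level. Of the 812 higher genes, 275 (33.9%) had the 0 µM library nearer to 30 µM and the 90 µM library nearer to 60 µM. This says only which side of the midpoint a library lay on, not that levels followed the doses: LOC116197583, one of the 275, had a higher scaled CPM at 60 than at 90 µM. Among all genes kept that share was 23.8%. Both outer libraries lay nearer to 30 µM in 253 higher genes (31.2%, against 30.8% of all genes), and both nearer to 60 µM in 111 (13.7% against 26.8%). The remaining 173 (21.3% against 18.6%) had 0 µM near 60 µM and 90 µM near 30 µM.

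For the 670 lower genes the commonest arrangement with the composition factors was another one. With totals as scaling it was the same in both directions, both outer libraries nearer to 30 µM. Among higher genes that arrangement then held 271 (33.3%), against 252 (30.9%) with 0 near 30 µM and 90 near 60 µM. Shares over all genes kept were not taken with totals as scaling. With the composition factors, both outer libraries lay nearer to 30 µM in 269 of the 670 lower genes (40.1%, against 30.8% of all genes). That arrangement was also the commonest among all genes kept. In 97 lower genes (14.5% against 26.8%) both lay nearer to 60 µM. The 0 µM library was nearer to 30 µM and the 90 µM library nearer to 60 µM in 151 (22.5% against 23.8%). With totals as scaling in place of the composition factors that share of lower genes was 26.5%. The reverse held in 153 (22.8% against 18.6%).

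**Figure D4:**
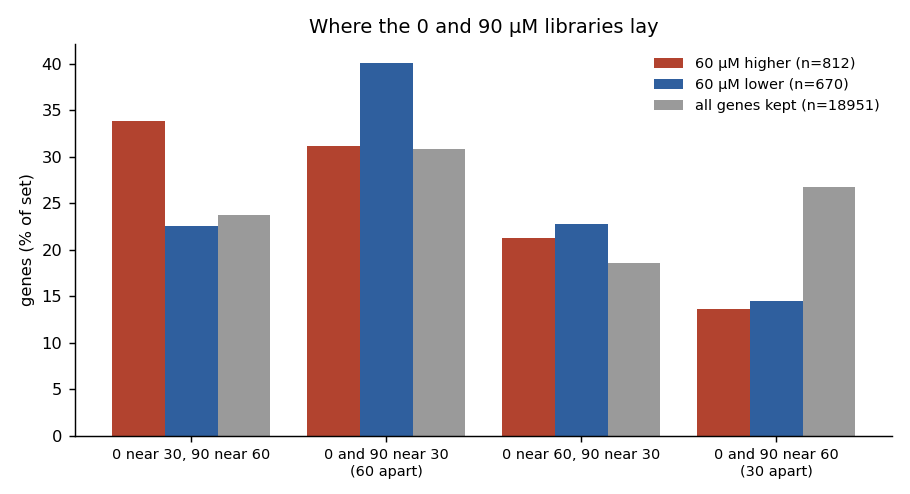
Percent of genes whose 0 and 90 µM libraries lay nearer to the 60 µM or the 30 µM level, for genes higher at 60 µM (red, 812), lower at 60 µM (blue, 670) and all 18951 kept (grey). The arrangement with 0 near 30 µM and 90 near 60 µM holds 33.9% of the higher genes, and the one with both near 30 µM holds 40.1% of the lower genes.

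Among called genes of both directions these arrangements differed between ranges of level. Shares by range were not taken over all genes kept, so a course with level may not be particular to called genes. Among higher genes, 0 nearer to 30 µM with 90 nearer to 60 µM made up 19.0% below 1 CPM, 25.2% from 1 to 3 CPM, 24.6% from 3 to 10 CPM and 34.1% from 10 to 30 CPM. It made up 45.6% from 30 to 100 CPM, 48.7% from 100 to 300 CPM, 52.2% from 300 to 1000 CPM and 6 of the 11 genes at 1000 CPM or more. The reverse, 0 nearer to 60 µM with 90 nearer to 30 µM, made up 38.1% below 1 CPM, 26.7% from 3 to 10 CPM, 11.4% from 30 to 100 CPM and 1 of 23 genes from 300 to 1000 CPM.

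Among lower genes the share with both outer libraries nearer to 30 µM had no steady course at low levels, at 36.8% below 1 CPM, 28.9% from 1 to 3 CPM, 36.4% from 3 to 10 CPM and 30.2% from 10 to 30 CPM. It was 42.6% from 30 to 100 CPM, 58.8% from 100 to 300 CPM and 67.7% (21 of 31 genes) from 300 to 1000 CPM.

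The arrangements also differed with the size of the difference. Of the higher genes with intervals past 2-fold but not 4-fold, 35.6% had 0 nearer to 30 µM with 90 nearer to 60 µM, and 16.7% had the reverse. Past 16-fold, 9 of 50 higher genes had the first and 23 the reverse. Past 16-fold on the lower side, 0 of 15 had the first and 8 the reverse. Over all genes kept the first made up 23.8% and the reverse 18.6%. Of the 20 genes furthest past the limit only 2 had 1 CPM in both libraries, and the others entered through the library where they were higher.

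Against water, 3.58% of all genes were called higher and 2.97% lower at 60 µM, and 1.64% higher and 2.01% lower at 30 µM. Of the 812 higher genes, 394 were also called higher and 5 lower for 60 against 0 µM, while 12 were called higher and 157 lower for 30 against 0 µM. Of the 670 lower genes, 8 were called higher and 232 lower for 60 against 0 µM, and 136 were called higher and 3 lower for 30 against 0 µM. Neither dose was called against water for 273 higher and 306 lower genes. In 16 genes the 2 doses were called in opposite directions against water, 12 of them higher at 60 than at 30 µM and 4 lower. All these comparisons reuse the 60 or the 30 µM library, so these numbers are not independent support for the calls.

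Some genes had 0 nearer to 30 µM and 90 nearer to 60 µM without following the doses. LOC116194625 had 306 counts at 60 µM and 4 at 30 µM (ratio 64.6, interval 24.98 to 239), with 3 at 0 µM and 68 at 90 µM. On the lower side, LOC116207382 had 347 counts at 60 µM and 2249 at 30 µM (7.67-fold lower, interval 6.85 to 8.62), with 1357 at 0 µM and 749 at 90 µM. LOC116212987 had 38 counts at 60 µM and 332 at 30 µM (10.3-fold lower, interval 7.38 to 14.9), with 250 at 0 µM and 64 at 90 µM. The first was highest and the other two lowest at 60 µM, not at 90 µM. These examples were picked by arrangement after their values were known.

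By feature class, 18291 of the kept genes were protein-coding and 634 were long non-coding RNAs (lncRNAs), transcripts without a recognised coding sequence. Of the protein-coding genes 775 (4.24%) were called higher and 651 (3.56%) lower, with a median log2 fold of 0.00. Of the lncRNAs 37 (5.84%) were called higher and 19 (3.00%) lower, with a median log2 fold of 0.09. The lncRNAs had lower levels, with a median of 2.93 CPM against 24.3 CPM for protein-coding genes. Within ranges of level the called share was 8.33% of lncRNAs and 12.1% of protein-coding genes from 1 to 3 CPM, and 5.71% of lncRNAs and 9.92% of protein-coding genes from 3 to 10 CPM. From 10 to 30 CPM it was 5.13% of lncRNAs and 5.69% of protein-coding genes, and from 30 to 100 CPM 2 of 16 lncRNAs (12.5%) and 5.44% of protein-coding genes. From 100 to 300 CPM it was 2 of 7 lncRNAs (28.6%) and 8.36% of protein-coding genes. These differences were not tested.

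The lncRNA furthest past the limit was LOC116215962, with 460 counts at 60 µM and 2 at 30 µM (ratio 194, interval 53.5 to 1609), 177 at 0 µM and 1 at 90 µM. LOC116209816 was counted only at 60 µM, with 97 counts and 0 in the other three libraries, at least 27-fold higher than at 30 µM. On the lower side LOC116190406 had 89 counts at 60 µM and 1090 at 30 µM (14.5-fold lower, interval 11.7 to 18.2), with 139 each at 0 and 90 µM, so that the 30 µM library alone was high.

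None of the 12 small nucleolar RNAs, 11 ribosomal RNA features and 3 small nuclear RNAs kept was called. Small nucleolar RNAs guide the chemical modification of ribosomal RNA. The snoRNA with the largest log2 fold, 1.39, was LOC116206508, with 44 counts at 60 µM and 13 at 30 µM (ratio 2.86, interval 1.51 to 5.79). The ribosomal RNA features had a median log2 fold of 0.17, and 8 of 11 were above 0, as were 9555 of all 18951 genes kept. LOC116190074, the ribosomal feature with the most counts, had 21796 counts at 60 µM and 19355 at 30 µM (ratio 0.951, interval 0.933 to 0.970). LOC116190117, with the second most, had 19741 counts at 60 µM and 14278 at 30 µM (ratio 1.17, interval 1.14 to 1.19). Copies of ribosomal RNA genes share reads, so values of single features are uncertain. The 3 small nuclear RNAs, parts of the splicing machinery or related particles, had log2 folds between -1.30 and -0.04. The one at -1.30 was LOC116189699, with 16 counts at 60 µM and 36 at 30 µM (ratio 0.375).

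The called share differed with the number of annotated transcripts. Of 12001 protein-coding genes with 1 annotated RefSeq transcript 9.51% were called. The share was 5.10% with 2 transcripts, 4.33% with 3 and 3.53% of the 1613 genes with 4 or more. Median levels were close, at 24.1 CPM for 1 transcript and 24.0 CPM for 4 or more. Between 10 and 100 CPM 477 of 6812 genes with 1 transcript were called, and 23 of 1068 genes (2.15%) with 4 or more. These differences between gene models were not tested.

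Some called genes were direct neighbours in the annotation. Of 14204 pairs of directly neighbouring genes with both kept, 158 had both called, 126 in the same direction (59 both higher and 67 both lower) and 32 in opposite directions. Beside a higher gene 10.5% of kept neighbours were also higher, against 3.69% beside a gene that was not. Beside a lower gene 14.3% of kept neighbours were lower, against 2.92%. Of the 126 same-direction pairs, 2 overlapped in the annotation. Whether the counting used strand is not stated, so overlapping neighbours can share reads, as can near-identical copies side by side.

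The called genes formed 106 runs of 2 to 6 neighbours in 1 direction. The longest held 6 lower genes, LOC116202851, LOC116206009, LOC116202846, LOC116203116, LOC116203353 and LOC116205348. They were between 2.39-fold (LOC116206009, 5501 counts at 60 µM and 11123 at 30 µM) and 5.73-fold lower (LOC116202851, 575 counts at 60 µM and 2782 at 30 µM). In all 6 the 60 µM library was the lowest and the 30 µM library the highest of the 4 on the scaled level. A second run held 5 lower genes, from LOC116211188 (1169 counts at 60 µM and 3299 at 30 µM, 3.34-fold lower) to LOC116197130 (8 counts at 60 µM and 102 at 30 µM, 15.1-fold lower).

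Higher genes formed 2 runs of 4. In the first, LOC116214825, one of the most counted genes, lay beside LOC116214822 (20146 counts at 60 µM and 7745 at 30 µM, ratio 2.20), LOC116213226 (5370 at 60 µM and 893 at 30 µM, ratio 5.08) and LOC116213438 (582 at 60 µM and 128 at 30 µM, ratio 3.84). In the second, LOC116215005 had LOC116215006, LOC116215003 and LOC116214115 as neighbours, with 30, 143 and 155 counts at 60 µM and 0, 13 and 1 at 30 µM. All 4 genes of that second run had more counts at 0 µM than at 90 µM, with 171, 39, 329 and 74 counts at 0 µM against 0, 7, 0 and 0 at 90 µM in the order LOC116215006, LOC116215003, LOC116215005, LOC116214115.

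**Figure D5:**
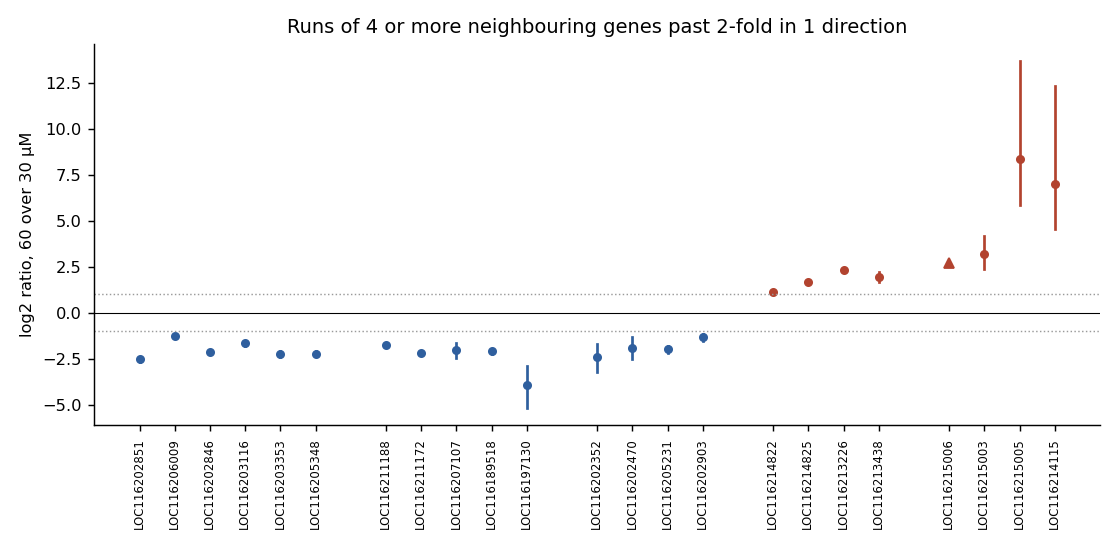
Log2 ratio, 60 over 30 µM ABA, with its 95% counting interval for the 5 runs of 4 or more neighbouring genes called in 1 direction, in annotation order; red is higher and blue lower at 60 µM, the triangle marks the lower end of the interval of a gene with 0 counts at 30 µM, and dotted lines mark 2-fold. The 6 genes of the longest run lie between 2.39-fold and 5.73-fold lower at 60 µM.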

How the data were processed

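RNA was extracted from leaves with TRIzol and made into Illumina libraries with a NEBNext Ultra kit, per the labels' protocols. The authors deposited a table of raw counts per gene for 4 libraries, 1 per ABA dose. FastQC, HISAT2 and featureCounts are named in the submitters' processing notes; versions, genome build, strand and how multi-mapped reads were handled are not stated. Of 27893 identifiers, 27509 matched a symbol and 37 a locus tag of the RefSeq assembly ASM765513v2, which gave feature class, number of transcripts and which genes neighbour each other. No coordinates are given, because the build of the counts is not named.

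From the counts, library sizes were scaled by TMM factors over all 4 libraries (edgeR 4.0.16, R 4.3.3). Genes with at least 1 CPM at 60 or 30 µM were kept. The ratio of scaled counts has an exact 95% conditional binomial (Clopper-Pearson) interval from SciPy 1.17.1, and log2 folds use a prior count of 2. A count of 0 was set to a floor of 3 counts per library for folds given as "at least". Intervals and floors cover counting error only, and PCR reads without molecular identifiers are not independent molecules. The procedure was tested on simulated data with counting error and known differences. Recovery of planted changes was checked only in genes with many counts. The simulation held no PCR duplicates and no plants differing within a dose, so it says nothing of either. DESeq2 1.42.0 size factors, column totals, other filters and other limits were tried as alternatives.

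Named genes were the 10 furthest past 2-fold in each direction by the interval end nearest to 1, the 2 furthest in each direction in each range from 10 CPM up, the 10 most counted, the furthest of each non-coding class and neighbouring called genes. Genes shown as examples of an arrangement, and the last genes inside and outside the limit, were added. Of 40 planned gene families 0 could be filled, and no similar proteins were sought, because no sequences or product descriptions were used here. The genes and comparisons were chosen with earlier results of these data known, and the arrangements around the pair were chosen after its values were seen. Near-identical, overlapping and antisense genes can share reads and are uncertain.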

Additional observations from a re-analysis of the deposited data

How the results depend on the processing

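With 1 library per dose there is no test, and no library can be left out. No paired analysis was possible because each dose has 1 library. Of the 1482 genes past 2-fold, 1475 were also called with column totals and 1472 with DESeq2 size factors. Scaling by totals moved the median log2 fold of all genes by 0.00562. Requiring 10 CPM in either library kept 13940 genes in place of 18951. Of those, 526 were called higher in place of 812, and 467 lower in place of 670. A limit of 4-fold left 244 higher and 128 lower genes, so that higher genes made up 65.59% of those called in place of 54.79%. At the 2-fold limit with 1 CPM required in both libraries, higher genes made up 52.63%. Without the interval, a ratio past 2-fold was met by 1351 higher and 1127 lower genes. When genes were placed by their level in the 0 and 90 µM libraries, the median absolute deviation of the log2 fold below 1 CPM was 1.07 in place of 1.23. With 1 CPM required in both libraries, 83 neighbouring pairs were called in 1 direction in place of 126, and 2 of the 20 genes furthest past the limit were kept. Called genes averaging 10 CPM or more were chosen as an alternative after seeing the data. Of these, 42.2% of the higher genes had 0 nearer to 30 µM with 90 nearer to 60 µM. Both lay nearer to 30 µM in 44.4% of the lower genes. The same shares were not taken over all kept genes averaging 10 CPM or more, so they may not be particular to called genes. Depth limits the lowest ranges, where the median interval below 1 CPM reached 2.02-fold to either side.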
